A study of Mus musculus with 9 samples.

Results

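*Mbp*, *Mobp*, *Mog*, *Mag*, *Cnp*, *Cldn11*, *Mal*, *Ermn* and *Ugt8a* are genes that oligodendrocytes use to build myelin, and their transcripts were followed here through a ribosome pulldown aimed at parvalbumin inhibitory neurons (PV INs) of CA3/CA2. The 9 genes were taken as a named list and not by a threshold on a measured value, although earlier results of these data were known. They make up 9 of the 37620 genes in the count tables. All 9 had a single identifier in the tables, and all 9 passed the filter on low counts that left 15069 genes for testing. Every mouse carried Pvalb-cre and a floxed Rpl22 allele that tags ribosomal protein L22 with HA after Cre recombination, so tagged ribosomes are limited to cells in which the parvalbumin promoter has driven Cre. The mice were 2 months old and received, in the dentate gyrus, a lentivirus that expressed either a non-target hairpin (shNT, 5 samples) or an shRNA against Ablim3 (shRNA, 4 samples). CA3/CA2 tissue was taken after 2 weeks. Each sample pooled 6 mice of both sexes, which means that the spread between samples is a spread between pools and that no value belongs to a single animal. Input RNA from the same tissue was not analysed here, so none of the values below is an enrichment over the tissue.

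Myelin is a multilayered sheath of membrane that oligodendrocytes wrap around axons, and in the hippocampus the axons of many PV INs are among those wrapped. Its compact layers are held together by basic proteins on their cytoplasmic faces, while adhesion and surface glycoproteins, tight junction strands and galactolipids shape its inner and outer borders. These genes are switched on together late in oligodendrocyte maturation, under transcription factors that include Olig2, Sox10 and Myrf, and they serve as standard markers of mature oligodendrocytes in brain RNA. In bulk samples such as these, a larger share of RNA from a cell type and more of the RNA per cell cannot be told apart.

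Promoter sequence was available for 8 of the 9 genes in RefSeq for GRCm38.p6, as 10 promoters, with no entry for *Mbp*. The 250 bases before each start site were searched on both strands for letters bound by the oligodendrocyte regulators: CTGGCAC and CTGGTAC for Myrf, ACAANG for the Sox family, and CAGCTG and CATCTG for the basic helix-loop-helix proteins to which Olig2 belongs. The windows below are shown because they hold the Myrf matches (*Cnp*, *Mag* and *Mog*) and a run of ACAANG copies (*Mobp*). They run 5′ to 3′ on the strand of the gene, and capitals mark each match, which may read on either strand.
Cnp (GRCm38.p6, chr11:100574759-100574878, plus strand, bases -180 to -61 from the start site): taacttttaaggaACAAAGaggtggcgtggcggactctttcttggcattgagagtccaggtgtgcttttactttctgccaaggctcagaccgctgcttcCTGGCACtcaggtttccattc
Mag (GRCm38.p6, chr7:30914923-30915022, minus strand, bases -100 to -1): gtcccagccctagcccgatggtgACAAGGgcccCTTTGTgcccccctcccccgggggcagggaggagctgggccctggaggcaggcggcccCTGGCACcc
Mog (GRCm38.p6, chr17:37023469-37023628, minus strand, bases -230 to -71): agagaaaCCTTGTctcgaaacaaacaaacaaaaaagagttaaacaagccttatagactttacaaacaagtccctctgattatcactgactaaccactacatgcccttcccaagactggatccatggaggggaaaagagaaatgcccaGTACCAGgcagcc
Mobp (GRCm38.p6, chr9:120149492-120149641, plus strand, bases -250 to -101): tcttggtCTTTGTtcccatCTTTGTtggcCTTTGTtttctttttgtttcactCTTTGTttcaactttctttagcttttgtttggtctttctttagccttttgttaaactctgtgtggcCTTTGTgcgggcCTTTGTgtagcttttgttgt
Either Myrf letter string was present in 4 of the 10 promoters, beside 5.93% of all 32851 promoters. The 4 belong to 3 of the 8 genes (*Cnp*, *Mag* and *Mog*). In the printed windows, the match of *Mag* lay at bases -9 to -3 from the start site and that of *Cnp* at -81 to -75. That of *Mog*, on the opposite strand, lay at -83 to -77. ACAANG was present in 7 of the 10 promoters, beside 36.3% of all promoters. The 7 belong to 5 of the 8 genes (*Cnp*, *Mag*, *Mobp*, *Mog*, and *Ermn*, whose window is not printed). The *Mobp* window held 6 copies, all on the strand opposite to the gene. No marked matches overlapped. CAGCTG and CATCTG were in none of the 10 promoters, beside 13.0% and 14.4% of all promoters. These are letter matches in a short window, and the data hold no measurement of binding.

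The libraries held 18281719 to 34578837 reads assigned to genes. Reads outside annotated exons, as a share of reads, were at most 11.3% in 4 of the shNT samples and 18.6% in shNT replicate 2, and ran from 12.4% to 27.2% in shRNA samples, highest in replicate 4. In the myelin genes shNT replicate 2 also stood apart from the other shNT samples, whereas shRNA replicate 4 lay close to shRNA replicate 3. Calls among the members and the other oligodendrocyte genes are given with and without each of these libraries. For the precursor genes and the markers of other cells, fits without either library are not given. *Pvalb*, which marks the targeted neurons, had a log2 fold change of -0.92 in shRNA relative to shNT samples (FDR = 0.0678, edgeR quasi-likelihood, Benjamini-Hochberg adjusted). *Ablim3*, the hairpin's target in dentate granule cells and not in the tagged cells, had one of 0.13 (FDR = 0.701, same test). Sample titles carry the name sets YTa31 (shNT 1 to 3, shRNA 1 to 3) and YTa32 (shNT 4 and 5, shRNA 4), and what these names mark is not stated.

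Levels of the 9 genes were first set against each other per length, as counts scaled to library size (CPM, TMM-normalized) per kilobase of exon, averaged over the 9 samples. *Mbp*, whose protein holds the cytoplasmic faces of compact myelin together, stood highest at 105.7 ± 58.1 CPM per kb (SD, n = 9). *Mobp*, which encodes another basic protein of compact myelin, had 36.6 ± 20.9 and *Cnp*, which encodes the cyclic nucleotide phosphodiesterase of non-compact myelin, had 36.4 ± 13.2 CPM per kb. The middle of the order held *Mag*, an adhesion glycoprotein gene of the inner, axon-facing membrane, at 16.4 ± 6.58, *Mal*, a proteolipid gene of membrane sorting, at 13.5 ± 4.95, and *Mog*, a glycoprotein gene of the outermost lamella, at 9.38 ± 3.72 CPM per kb. Lowest were *Ugt8a*, which encodes the enzyme that makes galactosylceramide (5.62 ± 1.62), *Ermn*, a cytoskeletal gene of late myelination (5.13 ± 1.99), and *Cldn11*, the claudin of myelin tight junctions (4.81 ± 1.67 CPM per kb).

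Neighbours in this order were compared within samples by an exact two-sided sign-flip permutation test of the log2 level difference over the 9 samples, with Benjamini-Hochberg adjustment over the 8 pairs. *Mbp* exceeded *Mobp* by a log2 difference of 1.54 in level per kb and in 9 of 9 samples (adjusted p = 0.0104, exact test). The steps from *Cnp* to *Mag* (1.19), *Mag* to *Mal* (0.25), *Mal* to *Mog* (0.55) and *Mog* to *Ugt8a* (0.69) also passed, with adjusted p no higher than 0.0188 in these exact tests. Per kb of all exon bases, *Mobp* and *Cnp* did not differ beyond their spread, since *Cnp* was the higher in 6 of 9 samples although *Mobp* had the higher mean (adjusted p = 0.442, exact test). *Ugt8a* and *Ermn* (log2 difference 0.17, adjusted p = 0.457, exact test) and *Ermn* and *Cldn11* (0.09, adjusted p = 0.442, exact test) were likewise not separated. The order of the means of *Mobp* and *Cnp* depended on the samples. Without shNT replicate 2, shRNA replicate 3 or shRNA replicate 4, *Cnp* had the higher mean. The result for *Mobp* and *Cnp* also depended on the length used. Per kb of the longest transcript they had means of 72.5 and 45.7 CPM, and 6 pairs passed in place of 5, with this pair added.

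**Figure D1:**
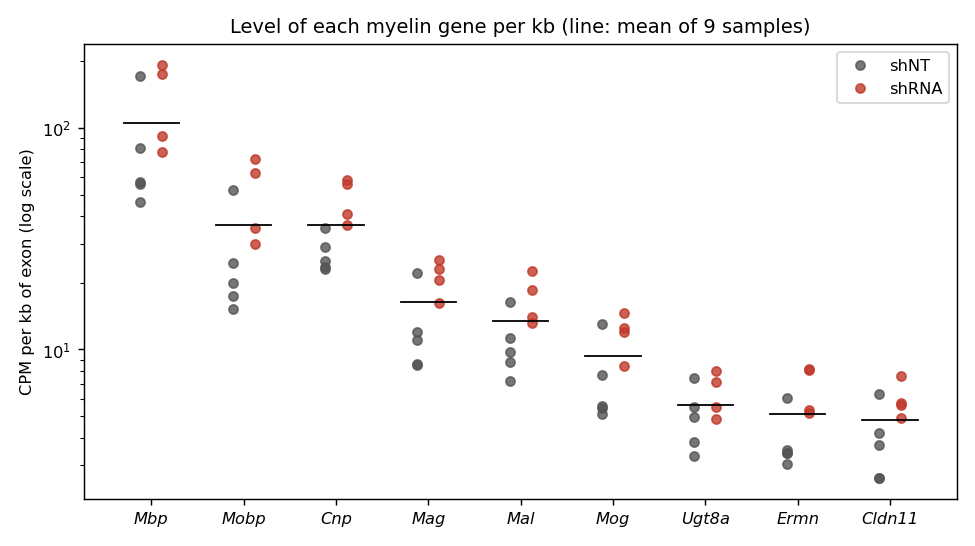
Level of each myelin gene in CPM per kb of exon (log axis), with 1 point per sample and a line at the mean of the 9 samples; shNT and shRNA samples are coloured separately. *Mbp* stands above all others at a mean of 105.7, and *Ugt8a*, *Ermn* and *Cldn11* lie close together between 4.81 and 5.62.

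The basic protein genes varied most among samples, with a coefficient of variation over the 9 samples of 54.9% for *Mbp* and 57.1% for *Mobp*, beside 28.8% to 40.2% for the other members. *Mbp* lies on chromosome 18 (mm9, 82644538 to 82755029, plus strand, ENSMUSG00000041607), in a locus that also makes golli transcripts outside myelin, and its reads were counted over all of these transcripts together. *Mbp* stood at 681, 1447, 468, 389 and 478 CPM in the 5 shNT samples, replicate 1 first. The 4 shRNA samples had 772, 655, 1479 and 1622 CPM in the same order. The groups overlapped, since shNT replicate 2 lay above shRNA replicates 1 and 2, and shNT replicate 1 above shRNA replicate 2. The mean was 693 ± 435 CPM in shNT (SD, n = 5) and 1132 ± 489 in shRNA samples (SD, n = 4), a log2 fold change of 0.71 (95% interval -0.20 to 1.61, FDR = 0.236, edgeR quasi-likelihood, Benjamini-Hochberg adjusted).

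*Mobp* (chromosome 9, 120058860 to 120090602, plus strand, ENSMUSG00000032517) had 160.2, 341, 129.8, 99.1 and 113 CPM across the shNT samples. Its shRNA values were 229, 193, 406 and 471 CPM. Of the shNT samples, replicate 2 alone lay inside the shRNA range, and the other shNT samples lay below it. The log2 fold change was 0.95 with an interval of 0.11 to 1.79, and the gene was not called (FDR = 0.113, edgeR quasi-likelihood, Benjamini-Hochberg adjusted). For each 1000 CPM of *Mbp*, *Mobp* had 235 to 277 CPM in shNT and 274 to 297 CPM in shRNA samples, so these basic protein genes kept nearly the same ratio in all 9 libraries while each varied more than 4-fold in level.

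Of the genes of the sheath's inner and outer surfaces, *Mag* (chromosome 7, 31684202 to 31699851, minus strand, ENSMUSG00000036634) had 26.7, 53.8, 29.1, 20.6 and 20.8 CPM in the shNT replicates. Its shRNA values were 49.7, 39.5, 56.1 and 61.4 CPM. Replicate 2 was again the sole shNT sample within the shRNA range. *Mag* had a log2 fold change of 0.77 (SE 0.27, FDR = 0.0857, edgeR quasi-likelihood, Benjamini-Hochberg adjusted). *Mog* (chromosome 17, 37147691 to 37160343, minus strand, ENSMUSG00000076439) had 9.46, 22.2, 13.0, 8.68 and 9.22 CPM in the shNT replicates and 20.4, 14.3, 21.4 and 24.9 CPM in the shRNA replicates. Its pattern over the samples was that of *Mag*, with shNT replicate 2 among the shRNA values and the rest below them. The log2 fold change of *Mog* was 0.69 (SE 0.29, FDR = 0.118, same test).

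*Cnp* (chromosome 11, 100436218 to 100453043, plus strand, ENSMUSG00000006782) was the member whose groups did not overlap. Its shNT values were 91.6, 129, 106, 83.6 and 85.9 CPM. Those of the shRNA samples were 133, 149, 203 and 213 CPM. The highest shNT sample, replicate 2, thus stood just under the lowest shRNA sample. The mean was 99.2 ± 18.9 CPM in shNT and 174 ± 39.3 in shRNA samples (SD, n = 5 and 4), a log2 fold change of 0.81 with an interval of 0.40 to 1.23. This missed the threshold narrowly (FDR = 0.0504, edgeR quasi-likelihood, Benjamini-Hochberg adjusted). Counting did not use strand, and 4.23% of the exon bases of *Cnp* are shared with *Dnajc7* on the opposite strand, so a small part of its reads cannot be assigned to either gene with certainty.

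*Mal* (chromosome 2, 127458962 to 127482431, minus strand, ENSMUSG00000027375) had 27.2, 45.4, 31.3, 20.0 and 24.3 CPM in shNT and 38.8, 36.7, 51.6 and 62.5 CPM in shRNA replicates. *Ermn* (chromosome 2, 57897524 to 57905275, minus strand, ENSMUSG00000026830) had 12.4, 21.9, 12.8, 11.1 and 12.4 CPM in shNT and 18.7, 19.3, 29.7 and 29.4 CPM in shRNA replicates. For both, shNT replicate 2 was the only shNT sample inside the shRNA range. *Mal* had a log2 fold change of 0.68 (SE 0.24, FDR = 0.0883) and *Ermn* one of 0.78 (SE 0.23, FDR = 0.0668), both by edgeR's quasi-likelihood test, Benjamini-Hochberg adjusted. Of the exon bases of *Ermn*, 6.52% are shared with *Galnt5* on the opposite strand.

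*Cldn11* (chromosome 3, 31048868 to 31063246, plus strand, ENSMUSG00000037625) was the least abundant per kb, with 4.84, 11.6, 7.75, 4.84 and 6.84 CPM in shNT and 10.6, 9.06, 13.9 and 10.4 CPM in shRNA replicates. Its shNT replicate 2 exceeded 3 of the 4 shRNA samples. The log2 fold change was 0.61 (SE 0.27, FDR = 0.132, edgeR quasi-likelihood, Benjamini-Hochberg adjusted).

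*Ugt8a* (chromosome 3, 125568277 to 125641468, minus strand, ENSMUSG00000032854) had another order of samples. It had 13.8, 11.9, 26.8, 19.7 and 17.8 CPM in shNT and 19.7, 25.5, 28.7 and 17.4 CPM in shRNA replicates. Here shNT replicate 2 was the lowest of all 9 samples and shRNA replicate 4 the lowest of its group, and the groups overlapped over most of their range. The log2 fold change was 0.34, with an interval of -0.19 to 0.87 (FDR = 0.320, edgeR quasi-likelihood, Benjamini-Hochberg adjusted).

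**Figure D2:**
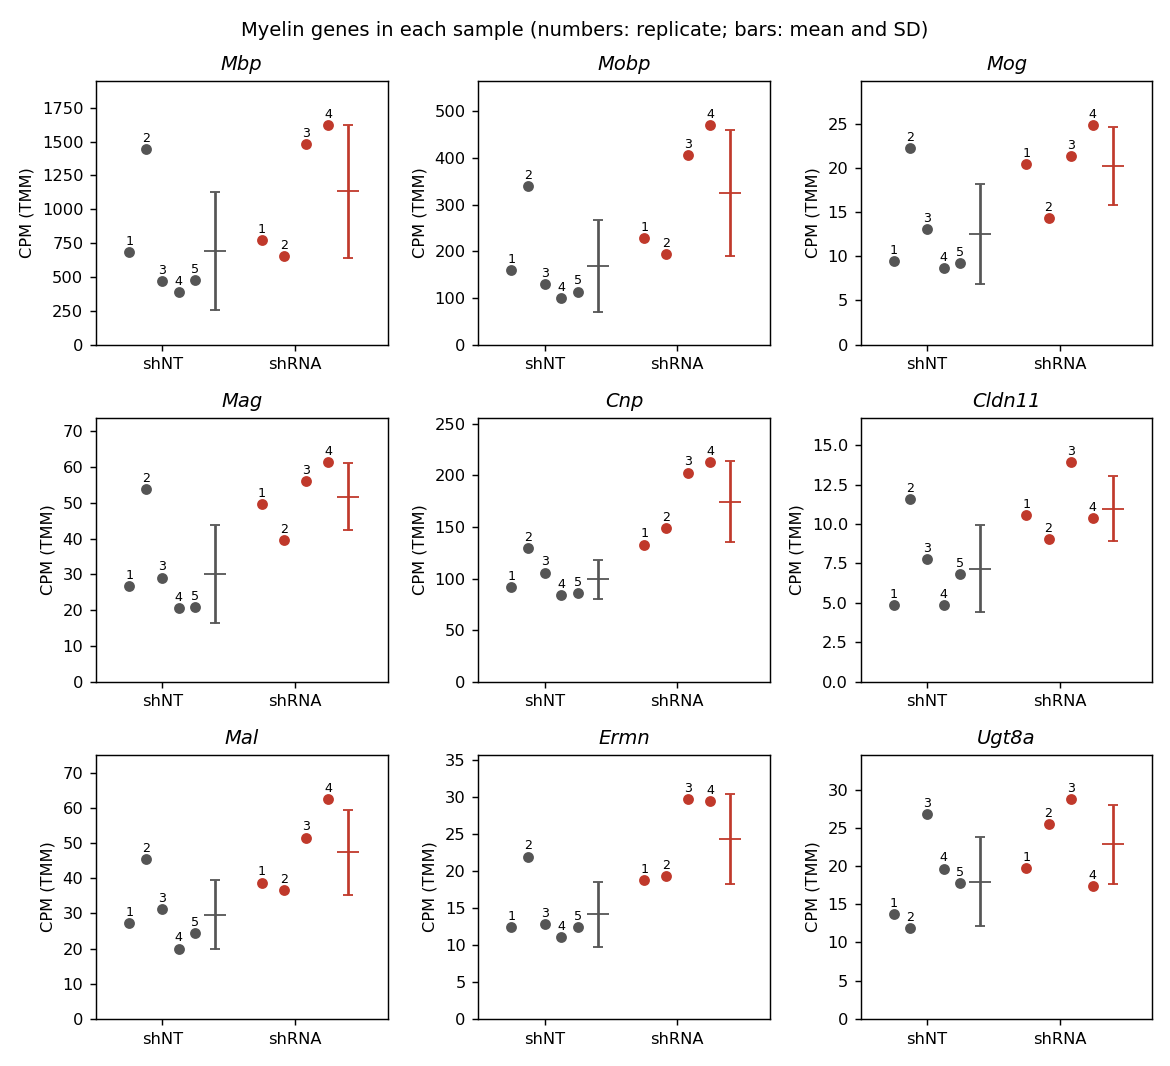
TMM-normalized CPM of each myelin gene (1 panel each, linear axis from 0) in the 5 shNT and 4 shRNA samples; points carry the replicate number, and bars show the mean ± SD of the group. Replicate 2 is the highest shNT point in all panels but that of *Ugt8a*, where it is the lowest at 11.9 CPM, and only in the panel of *Cnp* do the groups not overlap.

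Across the list, the comparison of shRNA with shNT samples asks whether transcripts in the pulldown shifted when Ablim3 was lowered in dentate granule cells. How much of this RNA was carried over without being bound to tagged ribosomes was not tested. None of the 9 myelin genes passed an FDR under 0.05 with at least a 1.5-fold change in either direction in edgeR's quasi-likelihood test, where 1.74% of all genes tested were called higher and 0.0133% lower. All 9 had a positive log2 fold change, as did 57.9% of all genes, and the median of the 9 was 0.71, beside 0.11 over all genes tested. At an unadjusted p under 0.05 by that test, 7 of the 9 were higher, against 20.7% of all genes, and at an FDR under 0.1 the number was 4 (*Mag*, *Cnp*, *Mal* and *Ermn*), against 14.7%. *Cnp* was the single member with every shRNA sample above every shNT sample, a pattern that 8.97% of all genes had. None had every shRNA sample below every shNT sample, as 6.68% of all genes did. The exact two-sided permutation test over the 126 possible assignments of samples to groups, which cannot give a p under 0.00794, gave p = 0.0159 for *Cnp*, 0.0317 for *Ermn*, 0.0397 for *Mag*, and 0.0476 for *Mog* and *Mal*. It gave 0.0635 for *Mobp*, 0.0714 for *Cldn11*, 0.151 for *Mbp* and 0.214 for *Ugt8a*, so 5 of 9 members were higher at p under 0.05 by this exact test, against 16.9% of all genes.

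The calls depended on the test, the filter on low counts and the samples in the fit. The likelihood ratio test and the exact test of edgeR each called *Mag*, *Cnp*, *Mal* and *Ermn* higher (background 11.2% and 11.0% of all genes), DESeq2 called *Cnp* and *Ermn* (10.1%), and limma voom with sample weights called all but *Ugt8a* (15.3%). With shNT replicate 2 left out, the quasi-likelihood test called 6 of 9 members higher, against 3.21% of all genes. These were *Mobp* (log2 fold change 1.37, FDR = 0.0453), *Mog* (1.00, 0.0426), *Mag* (1.09, 0.0426), *Cnp* (0.93, 0.0426), *Mal* (0.88, 0.0490) and *Ermn* (0.99, 0.0426), with Benjamini-Hochberg adjusted values from edgeR. *Mbp* (1.17, FDR = 0.0686), *Cldn11* (0.85, FDR = 0.0641) and *Ugt8a* (0.23, FDR = 0.466) were not called by edgeR even then. *Cnp* alone was called with shNT replicate 1 left out (FDR = 0.0471, against 6.68% of all genes called higher). The same held with no filter on low counts (FDR = 0.0477, against 2.08%), both by edgeR. With shRNA replicate 4 left out, none was called, where 0.978% of all genes were called higher. None was called with reads outside exons entered as a covariate, but that fit called 0 of all 15069 genes higher. The absence of calls there is therefore not particular to the members. In that fit their log2 fold changes ran from 0.37 to 0.69 and edgeR's FDR from 0.0972 (*Cnp*) to 0.486.

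**Figure D3:**
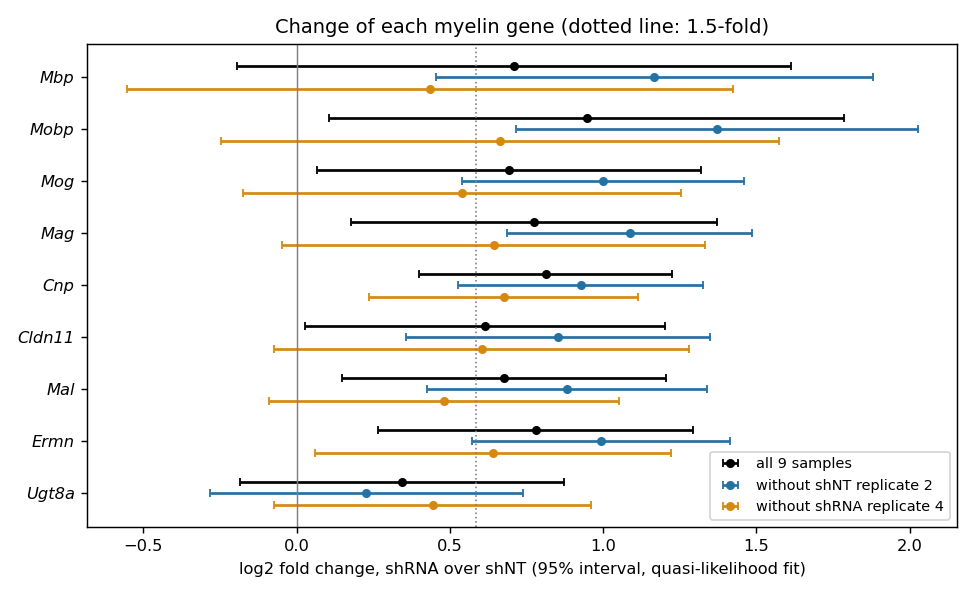
Log2 fold change of each myelin gene, shRNA relative to shNT, with its 95% interval from edgeR's quasi-likelihood fit, for all 9 samples and with shNT replicate 2 or shRNA replicate 4 left out; dotted lines mark 1.5-fold. All points lie above 0, from 0.34 (*Ugt8a*) to 0.95 (*Mobp*) with all samples, and leaving out shNT replicate 2 moves each gene but *Ugt8a* upward.

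Sample by sample, the 9 genes together came to 1028, 2083, 824, 657 and 769 CPM over the shNT samples. Over the shRNA samples they came to 1292, 1142, 2289 and 2512 CPM. The summed level of shNT replicate 2 lay above 2 of the 4 shRNA samples, and the other 4 shNT samples lay below all of them. Relative to the mean of the other shNT samples, shNT replicate 2 was 2.87-fold as high in *Mbp*, 2.71-fold in *Mobp*, 2.21-fold in *Mag*, 2.20-fold in *Mog*, 1.91-fold in *Cldn11*, 1.80-fold in *Ermn*, 1.77-fold in *Mal* and 1.41-fold in *Cnp*. It was the highest shNT sample in 8 of the 9 genes, which holds for 25.1% of all genes tested. In *Ugt8a* the same ratio was 0.61. The highest of all samples was shRNA replicate 4 in 6 genes and shRNA replicate 3 in *Cldn11*, *Ermn* and *Ugt8a*, while shNT replicate 4 was the lowest in 7.

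The members thus did not scale together in every library. For each 1000 CPM of *Mbp*, *Ugt8a* had 20.2, 8.22, 57.2, 50.5 and 37.3 CPM in shNT and 25.6, 38.9, 19.4 and 10.7 CPM in shRNA replicates. *Cnp* had 134, 89.3, 226, 215 and 180 CPM in shNT and 172, 227, 137 and 131 CPM in shRNA replicates on the same scale. Both ratios were lowest in shNT replicate 2 among shNT samples and in shRNA replicate 4 among shRNA samples. These are also the libraries with the highest *Mbp* of their groups, and *Mbp* is the denominator, so a low ratio there is in part built in. In level, *Cnp* was itself the highest of its groups in these libraries, at 129 and 213 CPM. *Ugt8a* was the lowest, at 11.9 and 17.4 CPM. Pearson's r between the log2 CPM of a gene and the mean of the other 8 members over the 9 samples, given as a description of samples that share depth and condition, was 0.87 for *Mbp*, between 0.90 and 0.98 for 7 others, and 0.06 for *Ugt8a*.

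**Figure D4:**
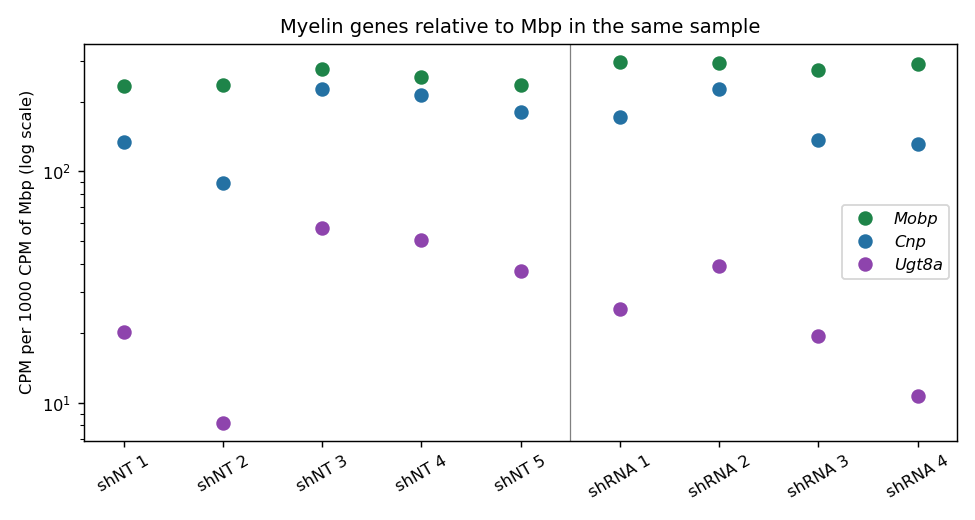
CPM of *Mobp*, *Cnp* and *Ugt8a* for each 1000 CPM of *Mbp* in every sample (log axis), shNT and shRNA samples side by side. *Mobp* stays between 235 and 297 in all samples, while *Ugt8a* runs from 8.22 to 57.2 with its lowest values in shNT replicate 2 and shRNA replicate 4.

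Within the name sets the differences were of unlike size. Among the YTa31 samples the difference in mean log2 CPM, shRNA minus shNT, was 0.23 for *Mbp*, 0.45 for *Mobp*, 0.46 for *Mag* and 0.56 for *Cnp*. Among the YTa32 samples, where shRNA replicate 4 is the only shRNA sample, it was 1.91, 2.15, 1.56 and 1.33 for the same genes. *Ugt8a* went the other way, with 0.57 and -0.10. Since the YTa32 values rest on that 1 shRNA sample, a difference between the sets and a difference of that library cannot be told apart. A fit on the YTa31 samples alone gave positive log2 fold changes for all 9, from 0.12 (*Mbp*) to 0.53 (*Cnp*), and no call. That fit called 0 of all 14475 genes tested higher.

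Other genes of the lineage were drawn from lists of mature oligodendrocyte genes, lineage transcription factors and genes of newly formed oligodendrocytes, of which 37 of 39 were tested. Of these 37, 5 rose in shRNA samples (1.74% of all genes did) and none fell, 36 had a positive log2 fold change, and the median was 0.94. The exception was *Qdpr* (log2 fold change -0.47, FDR = 0.0872, edgeR quasi-likelihood), which was not called. Every shRNA sample of *Qdpr* lay below every shNT sample, a pattern that 6.68% of all genes had. Those that rose were *Fa2h*, which hydroxylates the fatty acids of myelin galactolipids (log2 fold change 1.15, FDR = 0.0403), the receptor gene *Gpr37* (1.04, FDR = 0.0414), *Plekhh1* (1.45, FDR = 0.0403), and the transcription factor genes *Olig2* (0.96, FDR = 0.0411) and *St18* (1.39, FDR = 0.0403), all by edgeR's quasi-likelihood test, Benjamini-Hochberg adjusted. Which samples entered the fit decided this count. It was 16 without shNT replicate 2, 8 without shNT replicate 1 or shRNA replicate 2, and 2 without shRNA replicate 4. The shares of all genes called higher in these fits were 3.21%, 6.68%, 2.34% and 0.978%. Without any other single sample the count was 0, but so was the number of all genes called higher. *Sox10* (0.92, FDR = 0.0547), *Myrf* (1.00, FDR = 0.0503) and *Olig1* (0.62, FDR = 0.0714), all regulators of oligodendrocyte differentiation, were near the threshold by the same edgeR test. Of 10 genes of oligodendrocyte precursors, log2 fold changes were positive for 8 and negative for 2 (*C1ql1*, -0.35, and *Lhfpl3*, -0.17, neither called). Of the 8, 3 rose (1.74% of all genes did), namely the growth factor receptor gene *Pdgfra* (1.21, FDR = 0.0403), *Gpr17* (1.32, FDR = 0.0456) and the sialidase gene *Neu4* (1.5, FDR = 0.0433), in edgeR's test. Without any of shNT replicates 3, 4 and 5 or shRNA replicates 1 and 3, no gene at all was called higher, so these calls were lost too. The precursor list summed to 73.3 to 117.6 CPM in shNT and 136 to 270.0 CPM in shRNA samples.

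By the same measure of likeness, the genes outside the list whose log2 CPM followed the members' mean most closely over the 9 samples included *Trf* (r = 0.98), *Olig1* (0.97), *Tmem88b* (0.97), *Prr18*, *Gm98* (the annotation's name for *Myrf*), *Prkcd*, *Fam19a1*, *Rasd1* and *Agpat4*. They were among the top 10 of 9487 genes with a mean of at least 10 CPM, of which 33 had r over 0.9. *Trf* has 2 identifiers in the annotation, so its value (ENSMUSG00000032554) is uncertain.

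Markers of other cells were measured in the same libraries. The labelled cell type was checked first: of 13 PV IN markers none was called, none had a positive log2 fold change, and they summed to 5486 to 8824 CPM in shNT and 3190 to 7713 CPM in shRNA samples. The 15 astrocyte markers all had positive log2 fold changes with no call, a median of 1.34, and sums of 1879 to 2396 CPM in shNT and 2196 to 8419 CPM in shRNA samples, with shRNA replicate 4 the highest in all 15. The other 3 shRNA samples summed to at most 2631 CPM. Of 12 endothelial markers, 10 were positive, with none called. They summed to 216 to 532 CPM in shNT samples, and to 246, 148 and 261 CPM in shRNA replicates 1 to 3 but 1437 CPM in shRNA replicate 4, which was the highest sample in all 12. Of 12 microglial markers, 7 were positive with sums of 86.4 to 169.6 and 129.8 to 148 CPM. Of 8 pyramidal cell markers, 7 were positive (57.9% of all genes were), with a median of 0.66. Of these, *Grik4* rose (1.17, FDR = 0.0403, edgeR quasi-likelihood, Benjamini-Hochberg adjusted), as 1.74% of all genes did. The pyramidal sums did not overlap, at 255 to 533 CPM in shNT and 641 to 809 CPM in shRNA samples. For 5 of the 8, the lowest shRNA value exceeded the highest shNT value, beside 8.97% of all genes. The 6 RNAs kept in the nucleus were all positive. They summed to 1671 to 15043 CPM in shNT and 3643 to 19008 CPM in shRNA samples. In 6 of 6, shNT replicate 2 was the highest shNT sample. No tested marker in these lists was at 0 in any sample. Of 5 Schwann cell genes, 2 were tested and neither was called. *Pmp22* ran from 4.15 to 16.3 CPM, highest in shRNA replicate 4 (log2 fold change 0.86, FDR = 0.0858, edgeR), and *Ncmap* from 1.13 to 3.67 CPM (log2 fold change -0.50). The others stayed under 1 CPM in every sample. The part that these other cells, reads outside exons or the name sets had in the values of the myelin genes was not tested beyond the fits given above.

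**Figure D5:**
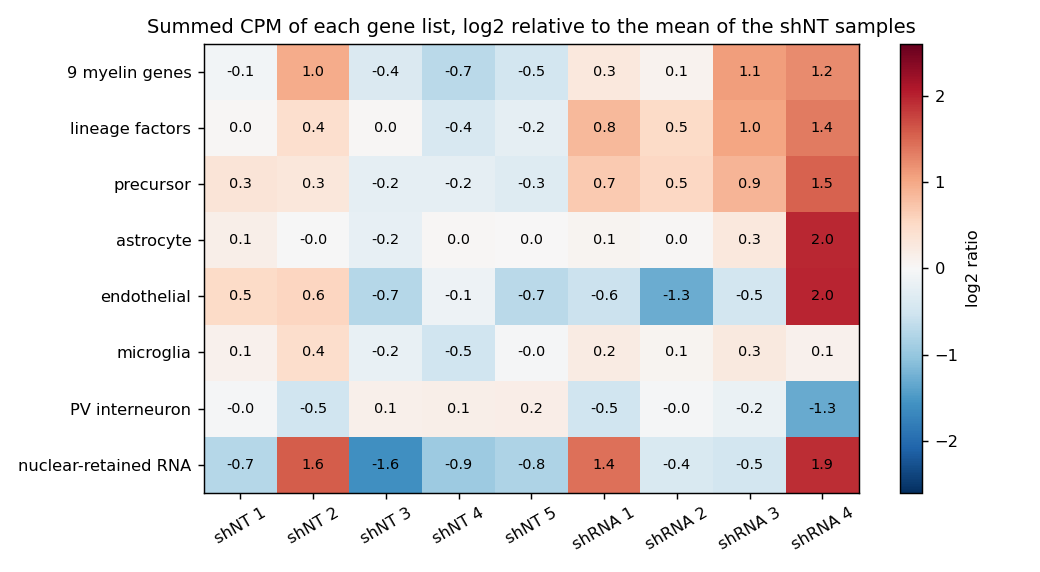
Log2 of the summed CPM of each gene list in each sample, with the shNT mean as 0 (colour scale), with lists as lines and samples as columns. The sums of the myelin genes and of the nuclear RNAs are both raised in shNT replicate 2. They part in shRNA replicate 1 (0.27 for myelin genes, 1.43 for nuclear RNAs) and in shRNA replicate 3 (1.09 and -0.47). The astrocyte sum is highest in shRNA replicate 4, at 8419 CPM.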

How the data were processed

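RNA recovered in the pulldown of HA-tagged ribosomes was sequenced from 5 shNT and 4 shRNA samples. The authors aligned 50 bp reads to mm9 with STAR and counted reads per gene with HTSeq 0.6.0 without regard to strand, and the deposited values are those raw counts, 1 file per sample. The annotation behind the counts is not given in the sources used here. Names, exon lengths and coordinates were taken from GENCODE vM1, of the same build, and promoters from RefSeq for GRCm38.p6. Coordinates of the builds were not mixed.

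Genes that reached 1 CPM in any sample were tested (15069, with 22551 removed). Counts were TMM-normalized and tested with edgeR 4.0.16 (quasi-likelihood, limma 3.58.1, R 4.3.3), condition being the only term, at an FDR under 0.05 with at least 1.5-fold change. The biological coefficient of variation was 0.303. Log2 levels used a prior count of 2. DESeq2 1.42.0, other edgeR tests, scalings and filters, and fits without each sample were alternatives. The scripts were tested on simulated data. Groups follow the sample labels. Each sample was a separate pool of mice, and p-values measure the spread between pools. At 18281719 or more gene counts per sample, counting error was small beside that spread. The members, lists and tests were chosen with earlier results of these data known. The genes named are the members, the list genes that passed the test, the checks *Pvalb* and *Ablim3*, and the regulators searched for. Also named are genes among the 10 most like the members' mean, oligodendrocyte and precursor genes with a negative log2 fold change, and the Schwann cell genes tested. Some list genes are not reported here.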

Additional observations from a re-analysis of the deposited data

Results flagged for a closer look

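In 6 of 24 groups of values examined, 1 sample stood farther from its group than the Dixon criterion allows at the 95% level, where chance gives about 1.2. In each of the 6 that sample was shNT replicate 2. It had 1447 CPM of *Mbp* (next highest shNT sample 681), 341 of *Mobp* (next 160.2), 53.8 of *Mag* (next 29.1) and 21.9 of *Ermn* (next 12.8). Its sum over the 9 myelin genes was 2083 CPM (next 1028), and 18.6% of its reads lay outside exons (next 11.3%). The values are not independent of each other, since they come from 1 library.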

How the results depend on the processing

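Each of the 9 myelin genes kept a positive log2 fold change under all 25 alternatives, and their median, 0.71, ran from 0.36 (YTa31 samples only) to 0.99 (without shNT replicate 2). The number of members called, 0, became 4 with edgeR's likelihood ratio test, 4 with its exact test, 2 with DESeq2, 8 with limma voom and 1 with no filter on low counts. It ran from 0 to 6 when 1 sample was left out, the 6 without shNT replicate 2 and 1 (*Cnp*) without shNT replicate 1. In fits added after seeing the data it was 6 without both shNT replicate 2 and shRNA replicate 4, and 8 with the likelihood ratio test without shNT replicate 2. The 5 other oligodendrocyte genes called became 18, 18, 17 and 26 with those 4 tests, 8 with no filter, 17 and 25 in the added fits, and 0 to 16 when 1 sample was left out. They became 0 with library size only, upper quartile scaling, filterByExpr, YTa31 samples only and the covariate for reads outside exons. Members with an exact permutation p under 0.05 numbered 5, but 2 with library size only or upper quartile scaling, and 1 to 7 when 1 sample was left out. Of the neighbours in level, 5 pairs differed, and 6 with the length of the longest transcript, where *Mobp* and *Cnp* were the added pair. All genes called higher numbered 262, and in edgeR's quasi-likelihood test 501 with no filter, 1007 without shNT replicate 1, 481 without shNT replicate 2, 353 without shRNA replicate 2 and 142 without shRNA replicate 4. In the same test they numbered 0 with library size only, upper quartile scaling, filterByExpr, the covariate, YTa31 samples only or without any of shNT replicates 3, 4 and 5 and shRNA replicates 1 and 3. They numbered 1688 with the likelihood ratio test, 1659 with the exact test, 1519 with DESeq2 and 2301 with voom, and 678 and 1935 in the added fits. The cause of these changes was not tested.

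The labels give both groups the same replicate numbers. Deviations of same-numbered samples from their group means had correlations of -0.27, -0.64, 0.49 and -0.18. These values differ in sign and cannot settle whether the numbers mark pairs. With the replicate number as a block, 0 members and 0 other oligodendrocyte genes were called, and 29 genes in all. With 5 against 4 pools, changes within the width of the intervals given could not be told from none.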
